A study of Homo sapiens with 16 samples.

Results

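The small nucleolar RNAs SNORD32A (U32A), SNORD33 (U33), SNORD34 (U34) and SNORD35A (U35A) are the C/D box snoRNAs hosted by RPL13A, the gene of a protein of the large ribosomal subunit. They were chosen by name and make up 4 of the 413 rows of the deposited snoRNA table, which holds 256 SNORD and 143 SNORA rows. All 4 had reads in all 16 libraries and passed the filter on low values, which kept 357 rows.

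Small RNA was sequenced from extracellular vesicles (EVs), the membrane particles that cells release into their medium, and from the cells that released them. The libraries fell into 8 groups of 2, taken from the human cancer lines MDA-MB-231 (breast) and PC3 (prostate), both labelled wild type, epithelial and without treatment, and both grown, per the labels, with 5% fetal bovine serum, although the study's methods give another share for MDA-MB-231. For each line there were EVs from next-gen ATPS, EVs from UC, EVs from the exoRNeasy kit, and donor cells. ATPS is an aqueous two-phase system of polyethylene glycol and dextran, from which EVs are taken in the dextran-rich phase, and in its next-gen form the dextran is then digested with dextranase. UC is ultracentrifugation; these libraries are labelled VC and were read as UC because the series names no other method for them. The exoRNeasy kit, labelled Qiagen, isolates EVs on a column and their RNA on another column, whereas RNA of the other materials was extracted with TRIzol and chloroform. Conditioned medium was collected, per the study's methods, after the cells had been kept in medium without serum. Separate cultures are not stated for the 2 libraries of any group, so a p-value here measures the spread between libraries only, and that spread may be technical.

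C/D box snoRNAs lie in introns, are freed from the spliced intron by trimming of both ends, and carry short C and D box motifs near their ends that bind the core snoRNP proteins. In the nucleolus they pair with ribosomal RNA and guide 2′-O-methylation at the paired site. U32A is known as a guide for both 18S and 28S rRNA, U33 as a guide for 18S rRNA, and U34 and U35A as guides for 28S rRNA. In hamster and mouse cells the snoRNAs of this gene are also known outside the nucleolus, from work on lipid-induced and oxidative stress and on their release from cells.

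The sequences are shown because all 4 come from 1 transcript but from separate introns, and because a read can be assigned to a member only where its sequence is its own. They were read from the hg38 genome at the GENCODE v44 positions, on the plus strand and 5′ to 3′, with the core of the C box (TGATG) and the D box (CTGA) in capitals. The last of them is SNORD32B, a second copy of U32 on chromosome 6.
SNORD32A: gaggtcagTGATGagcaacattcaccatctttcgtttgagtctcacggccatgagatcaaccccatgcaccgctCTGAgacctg
SNORD33: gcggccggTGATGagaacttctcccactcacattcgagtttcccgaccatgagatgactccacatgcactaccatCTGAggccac
SNORD34: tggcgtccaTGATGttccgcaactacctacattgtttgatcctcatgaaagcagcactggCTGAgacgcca
SNORD35A: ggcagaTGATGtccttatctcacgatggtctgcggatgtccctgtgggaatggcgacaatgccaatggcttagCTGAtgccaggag
SNORD32B: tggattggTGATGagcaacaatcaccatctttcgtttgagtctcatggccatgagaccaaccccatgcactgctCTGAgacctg

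SNORD32A (ENSG00000201675.1) lies at chr19:49489965-49490048, is 84 bases long and sits in the intron after exon 2 of RPL13A. SNORD33 (ENSG00000199631.1) follows at chr19:49490615-49490699, with 85 bases, in the intron after exon 4. SNORD34 (ENSG00000202503.1), the shortest with 71 bases, is at chr19:49490904-49490974 in the intron after exon 5. SNORD35A (ENSG00000200259.1) is at chr19:49491175-49491260, with 86 bases, in the intron after exon 6. All 4 are thus intronic in the 8-exon transcript ENST00000391857.9 and on its strand. The gap to the exon upstream was 42, 38, 39 and 75 bases for SNORD32A, SNORD33, SNORD34 and SNORD35A. The gap to the exon downstream was wider for SNORD32A (183 bases) and SNORD35A (164 bases) than for SNORD33 (79 bases) and SNORD34 (65 bases). GC content was 52.4, 55.3, 50.7 and 54.7% in the same order.

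**Figure D1:**
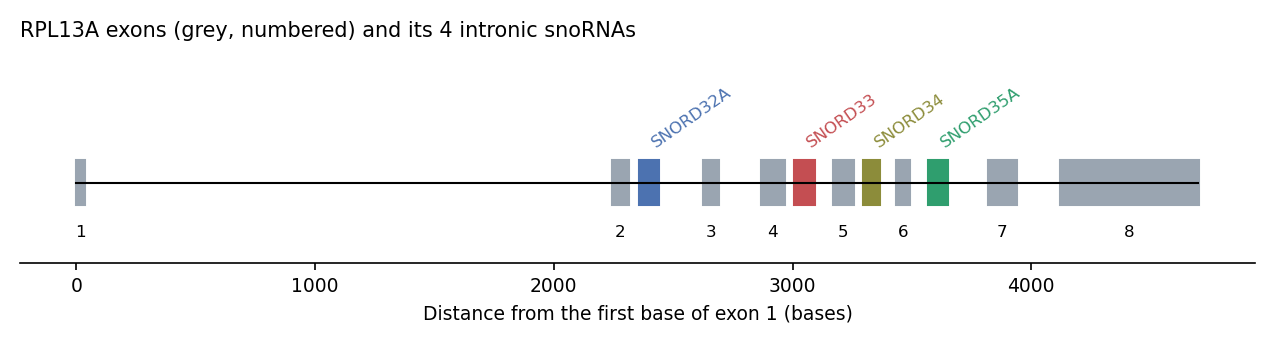
Map of the RPL13A gene drawn to scale, with the distance from the first base of exon 1 in bases on the x axis, exons as grey numbered boxes and the 4 snoRNAs as coloured boxes. Each snoRNA lies in an intron of its own, after exons 2, 4, 5 and 6.

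The C box core begins at base 9 in SNORD32A and SNORD33, 10 in SNORD34 and 7 in SNORD35A. The D box begins at base 75, 76, 61 and 74, which leaves 6, 6, 7 and 9 bases after it. These motifs are not particular to the RPL13A snoRNAs: on the strand of the gene, TGATG within the first 15 bases was found in 81.9% of 238 annotated SNORD rows, CTGA within the last 15 bases in 92.0%, and both in 80.7%. SNORD32A and SNORD32B share a run of 24 bases, tcaccatctttcgtttgagtctca, that begins at base 22 of each, and 7 of the 67 stretches of 18 bases in SNORD32A occur in SNORD32B too. A read within that run cannot be assigned to either gene. SNORD35A shares at most 12 bases with SNORD35B, a second copy of U35. A gene on chromosome 16 that is also named SNORD33 in the annotation shares at most 13 bases with SNORD33. Among the 4 members the longest shared run was 9 bases, between SNORD32A and SNORD33. Elsewhere in the genome, exact matches of 18 or more bases were found at 5 places for SNORD33, at 9 for SNORD34 and at 4 for SNORD35A, none of them in another listed snoRNA.

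The values are named TPM in the deposited table, but each is the share of a snoRNA in the snoRNA reads of its library, scaled to a total of 1000000 and with no term for length. A value is thus a share: a rise of a member and a fall of the other snoRNAs cannot be told apart, and neither can more vesicles and more RNA per vesicle. The study kept only reads much shorter than any of the 4 snoRNAs, so the values count fragments and not whole molecules. The snoRNA reads numbered 41519 to 151267 in ATPS EV libraries, 94210 to 400429 in UC EV libraries, 43868 to 111985 in exoRNeasy EV libraries and 16635 to 10849128 in cell libraries. The lowest of these was replicate 2 of MDA-MB-231 cells, in which 1 read is worth 60.1 TPM, 144 snoRNAs were above 0 and the 4 members had 27 reads together. In the EV libraries 1 read is worth 2.50 to 24.1 TPM. SNORD rows took 91.4 to 97.3% of the snoRNA reads in EVs and 98.6 to 99.1% in cells. Of miRNAs typical of epithelial cells, the cell type given in the labels, 3 of 6 were listed in the miRNA table, with 0 to 2 reads in EV libraries and 0 to 11 reads in cell libraries. None of 4 blood or 3 muscle miRNAs was listed, and 1 of 2 neuronal miRNAs was, with 0 to 6 reads in EVs and 0 to 46 in cells. Epithelial miRNAs were thus scarce in the 3 cell libraries with 34421 to 97406 miRNA reads, and replicate 2 of MDA-MB-231 cells had 153 miRNA reads in all.

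The first comparison asked how the share of each RPL13A snoRNA in EVs stood against that in the donor cells. SNORD33 and SNORD35A were higher in all 12 EV libraries than in all 4 cell libraries, SNORD34 overlapped between EVs and cells, and SNORD32A stayed within the range of the cells. Here and below, overlap between groups was looked at for the 4 members only, so the share of all snoRNAs without overlap is not known. The values of every library are shown in the plot of TPM by group.

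**Figure D2:**
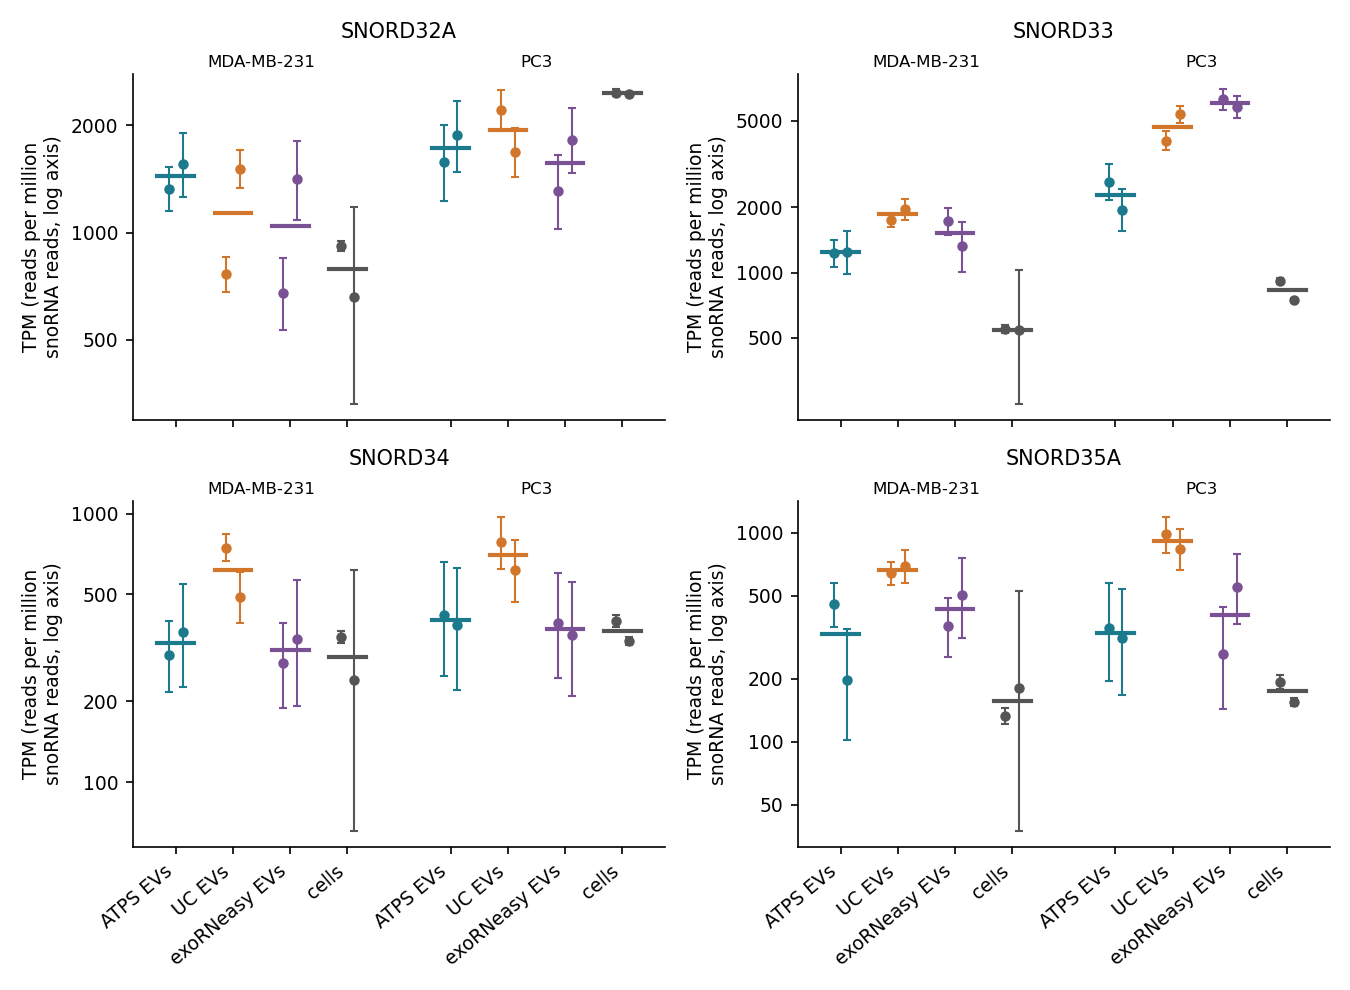
TPM (share of the snoRNA reads of a library, log axis) of the 4 snoRNAs, 1 panel each, with 1 point per library, its exact Poisson 95% interval for counting error as an error bar, and a thick line at the mean of the 2 libraries of a group, by line and material. In the SNORD33 and SNORD35A panels every EV point lies above every cell point, whereas the SNORD32A points of PC3 EVs lie below those of PC3 cells.

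SNORD33, a guide for 18S rRNA, had 1229.6 and 1248 TPM in MDA-MB-231 ATPS EVs, 1748 and 1962 TPM in MDA-MB-231 UC EVs and 1732 and 1322 TPM in MDA-MB-231 exoRNeasy EVs, against 552 and 541 TPM in MDA-MB-231 cells. In PC3 it had 2626 and 1951 TPM in ATPS EVs, 4063 and 5360.4 TPM in UC EVs and 6288 and 5828 TPM in exoRNeasy EVs, against 916 and 747 TPM in cells. The lowest EV library of either line was thus above the highest cell library, and the PC3 EV libraries other than those of ATPS stood above all others. Over both lines SNORD33 was 3.66-fold higher in EVs than in cells (log2 difference 1.87 ± 0.16, SE, 95% interval 1.53 to 2.21, adjusted p = 1.98e-07, limma). Of all 357 snoRNAs, 44.5% passed the threshold of an adjusted p of 0.05 in this comparison, 136 of them higher and 23 lower in EVs.

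SNORD35A, a guide for 28S rRNA, had 456 and 197 TPM in MDA-MB-231 ATPS EVs, 639 and 691 TPM in UC EVs and 357 and 502 TPM in exoRNeasy EVs, against 133 and 180.3 TPM in MDA-MB-231 cells. In PC3 it had 349 and 313 TPM in ATPS EVs, 981 and 839 TPM in UC EVs and 262 and 549 TPM in exoRNeasy EVs, against 193 and 155 TPM in cells. The groups did not overlap, but the lowest EV value, 197 TPM from 12 reads, was close to the highest cell value, 193 TPM. SNORD35A was 2.80-fold higher in EVs over both lines (log2 difference 1.49 ± 0.28, SE, 95% interval 0.88 to 2.10, limma adjusted p = 0.000531), a call that was lost under quantile normalization, where the difference was 0.03.

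SNORD34, also a guide for 28S rRNA, had 297 and 361 TPM in MDA-MB-231 ATPS EVs, 747 and 490.5 TPM in UC EVs and 277 and 342 TPM in exoRNeasy EVs, against 347 and 240.5 TPM in MDA-MB-231 cells. In PC3 it had 418 and 385 TPM in ATPS EVs, 783 and 616 TPM in UC EVs and 393 and 353 TPM in exoRNeasy EVs, against 398 and 335 TPM in cells. Only 5 of the 12 EV libraries were above the highest cell library, 4 of them UC EVs. The difference over both lines did not pass the test (0.40 ± 0.23 on the log2 scale, SE, 95% interval −0.08 to 0.89, limma adjusted p = 0.170), and it was negative under quantile normalization (−0.74, past the threshold), centring (−0.35) and TMM scaling (−0.20).

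SNORD32A, a guide for 18S and 28S rRNA, had 1329 and 1559.6 TPM in MDA-MB-231 ATPS EVs, 764 and 1513 TPM in UC EVs and 679 and 1413 TPM in exoRNeasy EVs, against 918 and 661 TPM in MDA-MB-231 cells. In PC3 it had 1580.3 and 1879 TPM in ATPS EVs, 2209.7 and 1688 TPM in UC EVs and 1310.0 and 1825 TPM in exoRNeasy EVs, against 2475 and 2453 TPM in cells. Within MDA-MB-231, 4 of 6 EV libraries were above both cell libraries, while within PC3 all 6 EV libraries were below both cell libraries. In each MDA-MB-231 EV group SNORD32A was lower in replicate 1, which had more snoRNA reads than replicate 2. Over both lines the difference was 0.02 ± 0.23 (log2, SE, 95% interval −0.47 to 0.52, limma adjusted p = 0.958). Its sign depends on the scaling, since it was −0.79 under quantile normalization and −0.73 after centring, both past the threshold. Centring means that each library was shifted by its median over the snoRNAs above 0 in all 16 libraries.

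These differences stand beside a median of 0.95 on the log2 scale over all 357 snoRNAs, so most snoRNAs had a larger share in EVs over both lines. By line the median was 1.56 in MDA-MB-231 and 0.00 in PC3. Without replicate 2 of MDA-MB-231 cells, where many snoRNAs had no read, the median over both lines was 0.73. Relative to the median of 0.95 SNORD33 was 0.92 and SNORD35A 0.54 higher, whereas SNORD34 and SNORD32A were −0.54 and −0.92. The median itself moves with the scaling: it was −0.33 after quantile normalization, 0.20 after centring, 0.59 with TMM scaling in edgeR and 1.31 with DESeq2. Of the snoRNAs called, 85.5% were higher in EVs with the deposited scaling, 65.1% with TMM scaling, 53.7% after centring and 41.6% after quantile normalization. SNORD33 was called higher in EVs under all 13 alternative settings (1.03 to 1.92) and without each of the 16 libraries in turn (1.80 to 1.94). Without replicate 2 of MDA-MB-231 cells, the library of lowest depth, SNORD33 was at 1.86 and SNORD35A at 1.60, both still past the threshold. Counting error alone gives that library 541 TPM of SNORD33 with an exact Poisson 95% interval of 247 to 1027 TPM, and 180.3 TPM of SNORD35A with 37.2 to 527 TPM.

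**Figure D3:**
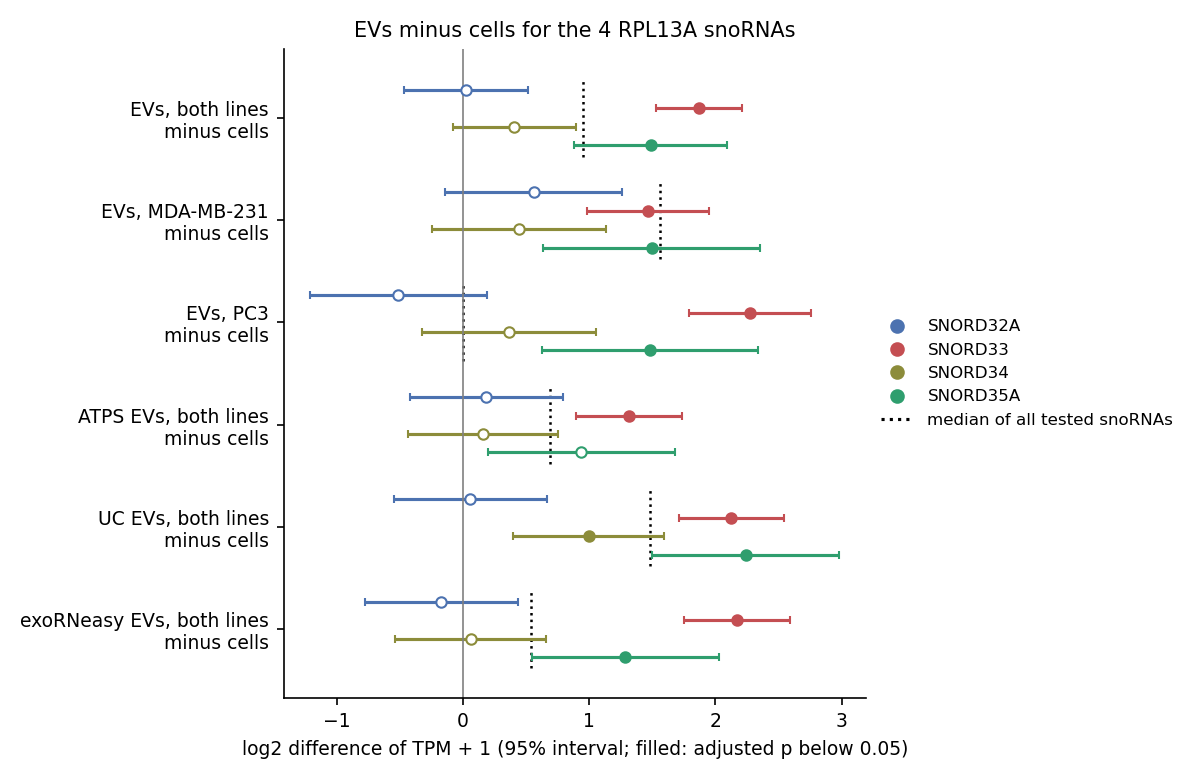
Log2 differences between EVs and cells of the 4 snoRNAs (x axis, log2 of TPM + 1, with 95% intervals) by line and by isolation method (y axis), with filled points where the adjusted p was below 0.05 and a dotted line at the median of all tested snoRNAs. SNORD33 is filled in every comparison, SNORD35A in all but ATPS EVs minus cells, SNORD34 only in UC EVs minus cells and SNORD32A in none.

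Within each line the same snoRNAs passed the test. In MDA-MB-231, where 46.5% of all snoRNAs were called, SNORD33 was 2.77-fold higher in EVs (1.47 ± 0.23 on the log2 scale, SE, limma adjusted p = 7.49e-05) and SNORD35A 2.82-fold higher (1.49 ± 0.40, adjusted p = 0.00625). The median of all snoRNAs in that line was 1.56, and neither of them exceeded it. That median rests partly on replicate 2 of MDA-MB-231 cells, where only 144 snoRNAs were above 0, so where the 2 stand in the class is uncertain in this line. In MDA-MB-231 SNORD33 was at 0.04 under quantile normalization and 0.39 after centring, and SNORD35A at −0.52 and 0.42, none past the threshold. In PC3, where 20.7% were called and the median was 0.00, SNORD33 was 4.83-fold higher (2.27 ± 0.23, limma adjusted p = 3.93e-06) and SNORD35A 2.79-fold higher (1.48 ± 0.40, adjusted p = 0.0142). SNORD33 kept its call in both lines without each library in turn. SNORD35A lost it in MDA-MB-231 without replicate 1 of the cells (1.28, limma adjusted p = 0.0534), which leaves the library of lowest depth alone, and in PC3 without replicate 1 or 2 of the cells (1.64 and 1.32, adjusted p = 0.0841 and 0.202) or under quantile normalization (0.58). SNORD32A differed by 0.56 in MDA-MB-231 (adjusted p = 0.178, limma) and by −0.51 in PC3 (adjusted p = 0.331). The MDA-MB-231 value was negative under quantile normalization (−0.74), centring (−0.52) and TMM scaling (−0.13), and the PC3 value passed the threshold after centring (−0.94, limma adjusted p = 0.0280) and with TMM scaling (−0.90, edgeR adjusted p = 0.0221). SNORD34 differed by 0.45 in MDA-MB-231 and 0.36 in PC3, with adjusted p = 0.282 and 0.556 by limma, and both were negative under quantile normalization (−1.37, past the threshold, and −0.10), centring (−0.63 and −0.062) and TMM scaling (−0.37 and −0.030).

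A difference between the lines in these EV effects was tested directly, as MDA-MB-231 minus PC3, and was called for 17.1% of all snoRNAs but, with the deposited scaling, for none of the 4. SNORD33 came to −0.80 ± 0.32 (log2, SE, limma adjusted p = 0.0973) and SNORD32A to 1.07 ± 0.46 (adjusted p = 0.121). SNORD33 passed the threshold after centring (−1.45, limma adjusted p = 0.00692), under quantile normalization (−1.985, adjusted p = 0.000457) and without the 10 most abundant snoRNAs (−1.09, adjusted p = 0.0208). SNORD34 and SNORD35A had 0.08 and 0.01, both negative in those same settings.

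The isolation methods were then set against the cells one by one; these comparisons share the cell libraries. SNORD33 was higher in EVs of all methods, with log2 differences of 1.32 for ATPS, 2.13 for UC and 2.17 for exoRNeasy, with limma adjusted p = 7.51e-05, 7.11e-07 and 4.43e-07. Its ATPS call was lost after centring (0.55, adjusted p = 0.0541, limma). The shares of all snoRNAs called were 32.5% for ATPS, 49.3% for UC and 35.6% for exoRNeasy EVs, and the medians of all were 0.69, 1.48 and 0.54. SNORD35A was 4.72-fold higher in UC EVs (2.24, limma adjusted p = 9.16e-05) and 2.44-fold higher in exoRNeasy EVs (1.29, adjusted p = 0.00992). Without replicate 2 of PC3 exoRNeasy EVs or of PC3 cells the exoRNeasy difference was 1.02 and 1.21 and missed the threshold (limma adjusted p = 0.0552 and 0.0501). In ATPS EVs SNORD35A differed by 0.94 and just missed the threshold (limma adjusted p = 0.0518), and it passed when any of 6 single libraries was left out. SNORD35A also passed in ATPS EVs in 6 of 13 alternative settings, among them DESeq2 (1.08) and edgeR without TMM (1.12). Under quantile normalization SNORD35A was at −0.55 in ATPS, 0.71 in UC and −0.06 in exoRNeasy EVs, none past the threshold. After centring the exoRNeasy call was lost (0.67). SNORD34 passed only in UC EVs, 1.99-fold higher (0.99 ± 0.28, SE, limma adjusted p = 0.0093), though it was −0.39 under quantile normalization and missed the threshold after centring (0.13), with TMM scaling (0.42) and without replicate 2 of PC3 cells (0.93, adjusted p = 0.0521). In ATPS and exoRNeasy EVs SNORD34 differed by 0.16 and 0.06, and under quantile normalization by −0.90 and −0.91, the second of these past the threshold. Both were also negative after centring (−0.61 and −0.56) and with TMM scaling (−0.48 and −0.53), none of these past the threshold. SNORD32A differed by 0.18, 0.06 and −0.17 in ATPS, UC and exoRNeasy EVs, none past the threshold with the deposited scaling. Under quantile normalization these were −0.52, −0.97 and −0.87, and after centring −0.59, −0.81 and −0.79, past the threshold for UC and exoRNeasy EVs in both.

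The study compared ways of isolating EVs, and the methods were therefore compared with each other. Between ATPS and UC EVs 0% of snoRNAs were called by limma, 52 had an unadjusted p under 0.05, and edgeR with TMM, edgeR without TMM and DESeq2 called 9, 17 and 15. SNORD35A had 456, 197, 349 and 313 TPM in the ATPS libraries, against 639, 691, 981 and 839 TPM in the UC libraries. All 4 ATPS values were below all UC values, a difference of −1.30 with limma adjusted p = 0.161, and it was past the threshold in the 3 count-based fits. SNORD33 and SNORD34 differed by −0.81 and −0.84 (limma adjusted p = 0.161 and 0.224), and SNORD32A by 0.13.

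Between ATPS and exoRNeasy EVs 3.36% of snoRNAs were called, 12 in all, and SNORD33 was among them. It was lower in ATPS EVs over both lines (−0.85 ± 0.20, log2, SE, limma adjusted p = 0.0203). The lines differ in what they contribute. In PC3, where 4.2% of snoRNAs were called, SNORD33 had 2626 and 1951 TPM in ATPS EVs, against 6288 and 5828 TPM in exoRNeasy EVs, a difference of −1.42 (limma adjusted p = 0.0130). In MDA-MB-231 it had 1229.6 and 1248 TPM in ATPS EVs, against 1732 and 1322 TPM in exoRNeasy EVs, a difference of −0.29 (adjusted p = 0.784, limma). The difference between the lines was 1.13 and did not pass the test (limma adjusted p = 0.342). The call over both lines was lost in 5 of 16 fits that left out 1 library: either MDA-MB-231 ATPS EV library (adjusted p = 0.0507 and 0.0539, limma), replicate 2 of PC3 ATPS EVs (0.0889) or either PC3 exoRNeasy EV library (0.113 and 0.0720). The call in PC3 was lost without replicate 2 of PC3 ATPS EVs (−1.21, limma adjusted p = 0.0878) and without either PC3 exoRNeasy EV library (−1.36 and −1.47, adjusted p = 0.114 and 0.0827). SNORD35A, SNORD34 and SNORD32A differed between ATPS and exoRNeasy EVs by −0.35, 0.10 and 0.36, none past the threshold.

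Between UC and exoRNeasy EVs 13.7% of snoRNAs were called, and SNORD34 was among them. It had 747, 490.5, 783 and 616 TPM in the UC libraries, against 277, 342, 393 and 353 TPM in the exoRNeasy libraries. The groups did not overlap, and the difference was 0.93 ± 0.28 (log2, SE, limma adjusted p = 0.0407). The call was lost in 10 of 16 fits that left out 1 library, in which the difference stayed between 0.78 and 1.09 and adjusted p reached 0.141 by limma. It was lost without replicate 1 of MDA-MB-231 UC EVs, without replicate 1 of MDA-MB-231 exoRNeasy EVs, and without any library of PC3. SNORD35A differed by 0.95 (limma adjusted p = 0.0800), SNORD32A by 0.23 and SNORD33 by −0.04.

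The donor lines were compared within each material. In cells SNORD32A had 918 and 661 TPM in MDA-MB-231, against 2475 and 2453 TPM in PC3. It was lower in MDA-MB-231 cells, at 0.316 of the PC3 level (−1.66 ± 0.40, log2, SE, limma adjusted p = 0.0063), where 22.4% of all snoRNAs were called, 8 higher and 72 lower, and the median was −0.86. The call was lost under quantile normalization (−0.73), under centring (−0.77) and without replicate 2 of MDA-MB-231 cells (−1.42, limma adjusted p = 0.0648), and the direction held in all of these. Of the snoRNAs called in cells, 10% were higher in MDA-MB-231 with the deposited scaling, 46.8% after quantile normalization and 43.6% after centring. SNORD33 was also lower in both MDA-MB-231 cell libraries than in both PC3 cell libraries, but the difference of −0.60 missed the threshold (limma adjusted p = 0.143) and was 0.40 under quantile normalization. SNORD34 and SNORD35A differed by −0.34 and −0.16 in cells, also with the sign reversed by quantile normalization (0.89 and 0.90).

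In EVs SNORD33 was the member that passed the test between the lines. It was lower in 5 of 6 MDA-MB-231 EV libraries than in every PC3 EV library, with 1229.6 to 1962 TPM (median 1527 TPM) in MDA-MB-231 EVs and 1951 to 6288 TPM (median 4712 TPM) in PC3 EVs. Its level in MDA-MB-231 EVs was 0.379 of that in PC3 EVs (−1.40 ± 0.16, log2, SE, limma adjusted p = 2.99e-05), where 33.3% of all snoRNAs were called and the median was 0.03. This call held without each library in turn and under all 13 alternative settings (−1.58 to −1.17). By method the SNORD33 difference was −0.87 in ATPS EVs (limma adjusted p = 0.0742, with 6.16% of snoRNAs called), −1.33 in UC EVs (adjusted p = 0.00425, 19% called) and −2.00 in exoRNeasy EVs (adjusted p = 0.000461, 8.96% called). SNORD32A, SNORD34 and SNORD35A differed in EVs by −0.59, −0.25 and −0.14 (limma adjusted p = 0.061, 0.390 and 0.725).

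A ratio of 2 members within a library does not depend on how the library was scaled, nor on the other snoRNAs. Because the members and this ratio were chosen with results of these data known, the ratios are given without a test. SNORD33 had more reads than SNORD32A in 9 of 12 EV libraries and in none of the 4 cell libraries. The ratio of SNORD33 to SNORD32A ran from 0.80 to 4.80 in EVs (median 1.75) and from 0.30 to 0.82 in cells. The ranges touch, since the lowest EV ratio (MDA-MB-231 ATPS EVs) lies below the highest cell ratio, which came from 9 reads of SNORD33 and 11 of SNORD32A in replicate 2 of MDA-MB-231 cells.

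The shift was widest in PC3, where the ratio was 1.04 to 4.80 in EVs, above 1 in 6 of 6, and 0.305 and 0.370 in cells. In MDA-MB-231 it was 0.80 to 2.55 in EVs, above 1 in 3 of 6, and 0.60 and 0.82 in cells. For every method, replicate 1 of the MDA-MB-231 EVs had the higher ratio. By isolation method the median ratio was 0.98 for ATPS (0.80 to 1.66), 2.06 for UC (1.30 to 3.18) and 2.87 for exoRNeasy (0.94 to 4.80). These ranges overlap. The ratio was highest, 3.19 and 4.80, in PC3 exoRNeasy EVs. In MDA-MB-231 the exoRNeasy ratios, 0.94 and 2.55, did not stand apart from the UC ratios, 1.30 and 2.29. In the fitted values, the EV difference of SNORD33 exceeded that of SNORD32A by 1.85 on the log2 scale over both lines, by 0.91 in MDA-MB-231 and by 2.79 in PC3. Over the alternative settings these values were 1.82 to 1.91, 0.78 to 1.03 and 2.77 to 2.86, and without each library in turn 1.73 to 1.97, 0.67 to 1.15 and 2.64 to 2.93. A factor per library cancels in this difference, so settings that rescale a library could hardly move it, and the narrow range over settings is no test of it.

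**Figure D4:**
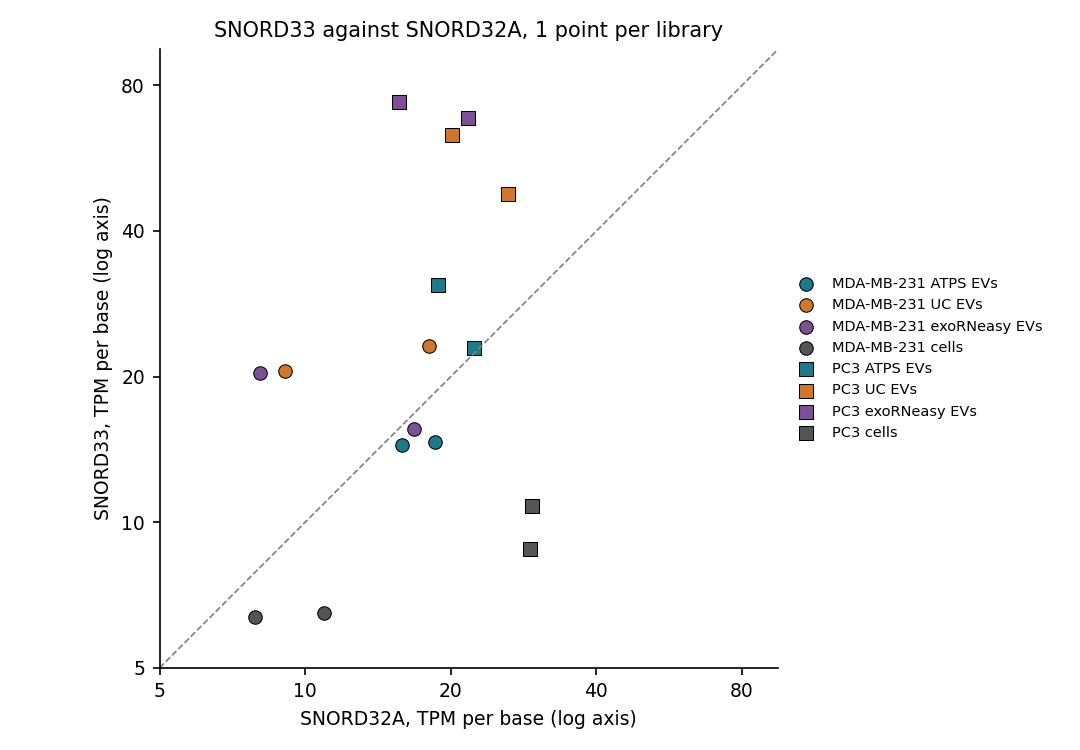
SNORD33 against SNORD32A in TPM per base (both log axes), 1 point per library, coloured by material and shaped by line, with a line of equal levels. All 4 cell points and 3 MDA-MB-231 EV points lie below the line, and all 6 PC3 EV points lie above it.

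Other pairs of members shifted as well. SNORD35A exceeded SNORD34 in 7 of 12 EV libraries, with ratios of 0.545 to 1.56, and in none of the 4 cell libraries, with ratios of 0.384 to 0.75. The ratio of SNORD33 to SNORD34 was 2.34 to 16.5 in EVs and 1.59 to 2.3 in cells. These ranges did not overlap, but the lowest EV ratio was close to the highest cell ratio. In replicate 2 of MDA-MB-231 cells the ratio came from 9 reads of SNORD33 and 4 of SNORD34. As shares of the reads of all 4, SNORD32A had 15.9 to 41.5% in PC3 EVs and 62.2 and 66.5% in PC3 cells, while SNORD33 had 43.1 to 76.2% in PC3 EVs and 23 and 20.2% in PC3 cells. In MDA-MB-231 SNORD32A had 19.6 to 46.3% in EVs and 47.1 and 40.7% in cells, and SNORD33 had 36.9 to 56.9% in EVs and 28.3 and 33.3% in cells. SNORD34 held 4.13 to 19.2% in EVs and 9.09 to 17.8% in cells, and SNORD35A held 3.17 to 16.4% in EVs and 4.20 to 11.1% in cells. Together the 4 made up 0.305 to 0.856% of the snoRNA reads in EVs and 0.162 to 0.398% in cells, and within each line every EV library had more than both cell libraries.

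**Figure D5:**
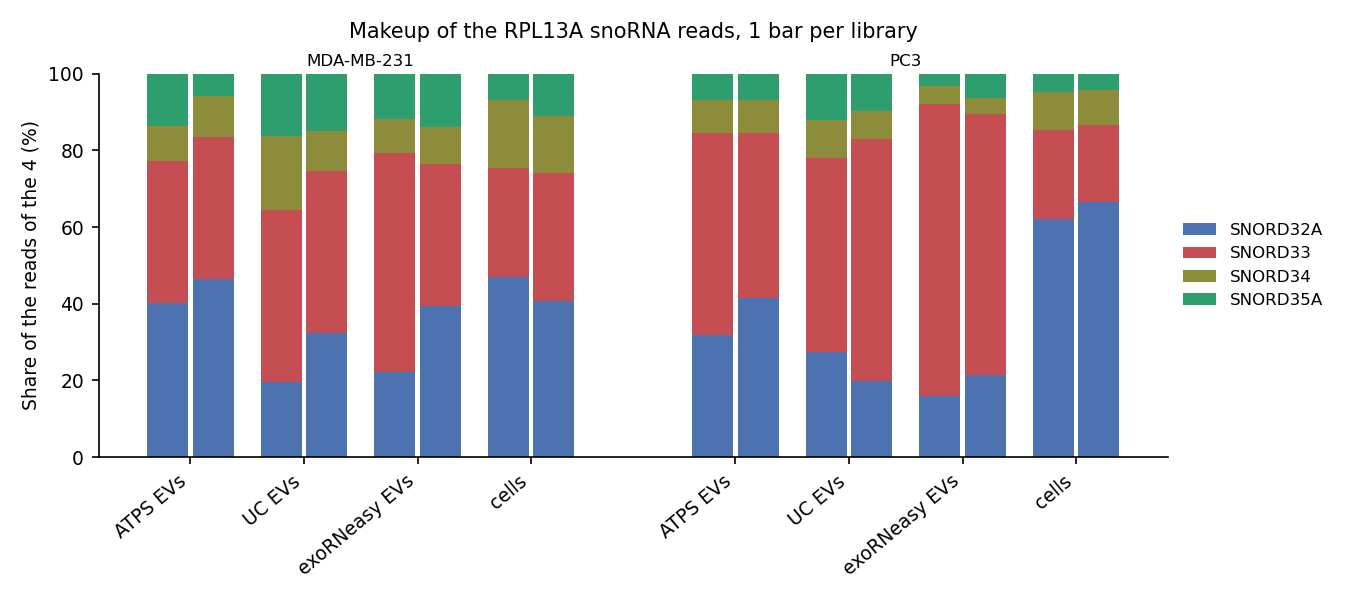
Share of each snoRNA in the summed reads of the 4 (y axis, %), 1 bar per library, by line and material. The SNORD32A part is largest in PC3 cells (62.2 and 66.5%) and the SNORD33 part in PC3 exoRNeasy EVs (76.2 and 68.1%).

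To set different snoRNAs side by side, TPM was divided by the annotated length. Whether reads of fragments scale with that length was not tested, so the order and ranks below describe reads and not molecules. In all 4 cell libraries the order per base was SNORD32A, SNORD33, SNORD34, SNORD35A, although the 4 and 3 reads of the last pair in replicate 2 of MDA-MB-231 cells do not set an order. In EVs SNORD33 was first in all 6 PC3 libraries and in 3 of 6 MDA-MB-231 libraries, and SNORD32A was first in the other 3. SNORD33 had 14.5 to 74.0 TPM per base in EVs and 6.37 to 10.8 in cells, and SNORD32A had 8.08 to 26.3 in EVs and 7.87 to 29.5 in cells. SNORD34 had 3.90 to 11.0 TPM per base in EVs and 3.39 to 5.61 in cells, and SNORD35A 2.29 to 11.4 in EVs and 1.55 to 2.24 in cells. Among the 370 snoRNAs with an annotated length, SNORD33 ranked 26 and 28 per base in PC3 exoRNeasy EVs, against 72 and 78 in PC3 cells. SNORD32A ranked 49 to 63 in PC3 EVs, against 41 in both PC3 cell libraries. Over all libraries SNORD32A ranked 41 to 81, SNORD33 26 to 78, SNORD34 71 to 110 and SNORD35A 79 to 132. The 370 include snoRNAs without a read in a library, so a rank does not give the place among detected snoRNAs. In replicate 2 of MDA-MB-231 cells, SNORD33, SNORD34 and SNORD35A ranked 68, 79 and 88, with 144 snoRNAs above 0.

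The 2 further copies of members were much scarcer. SNORD32B had 0 or 1 read in each EV library and 0 to 21 reads in each cell library, so few reads were given to this gene despite the run it shares with SNORD32A. SNORD35B had 46.5 to 244 TPM in EVs, 90.0 and 86.2 TPM in PC3 cells, 30.3 TPM in replicate 1 of MDA-MB-231 cells and no read in replicate 2, where 3 reads would be 180.3 TPM. It passed the test in EVs against cells over both lines (2.06, limma adjusted p = 0.0219) and in MDA-MB-231 (4.05, adjusted p = 0.00252), fitted values that rest on the cell library without a read and are no bound, and not in PC3 (0.08, adjusted p = 0.990).

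Over the 8 group means of log2(TPM + 1), the levels of SNORD34 and SNORD35A had a Pearson coefficient of 0.82, those of SNORD33 and SNORD35A 0.74 and those of SNORD33 and SNORD34 0.57. SNORD32A had coefficients of 0.36, 0.34 and 0.09 with SNORD33, SNORD34 and SNORD35A. These groups share lines, methods and the scaling within the snoRNA class, so the coefficients are a description. Of 280 snoRNAs with a mean of at least 10 TPM, the most alike were SNORA72 (0.94), SNORD89 (0.92) and SNORD67 (0.90) for SNORD33, and SNORD97 (0.94), SNORD83B (0.91) and SNORD62A (0.89) for SNORD35A. For SNORD34 they were SNORA37 (0.92), SNORA9B (0.91) and SNORA11F (0.85), and for SNORD32A they were SNORD116-27, SNORD104 and SNORD49B (each 0.92). SNORA37, SNORA9B and SNORA11F were near the floor, with means of 16.5, 13.5 and 41.3 TPM over the libraries, while 1 read is worth up to 24.1 TPM in an EV library. SNORD116-27 and SNORD97 were low as well, with means of 47.3 and 52.9 TPM. In replicate 2 of MDA-MB-231 cells 1 read is worth 60.1 TPM. No member was among the 3 most like another.

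Other ribosomal protein genes host C/D box snoRNAs in the same way, and 35 of these in 16 host genes were listed and tested. In EVs against cells 13 were higher and 9 lower, with a median of 0.08, beside 136 higher and 23 lower of all 357 and a median of 0.95. Within MDA-MB-231 the counts were 11 higher and 9 lower, and within PC3 7 higher and 3 lower, with medians of −0.06 in both. Of all 357 snoRNAs, 147 were higher and 19 lower in MDA-MB-231 (median 1.56), and 66 higher and 8 lower in PC3 (median 0.00). SNORD15B, hosted by RPS3, had the largest positive difference (3.63, limma adjusted p = 1.52e-08), with 365 to 1546 TPM in EVs and 48.5 to 92.3 TPM in cells. SNORD14B, hosted by RPS13, followed with 18.7 to 535 TPM in EVs, against 0 to 36 TPM in cells, and adjusted p = 0.000231 by limma. It had no read in replicate 2 of MDA-MB-231 cells, where 1 read is worth 60.1 TPM, so its fitted difference of 3.62 is no bound. SNORD101, hosted by RPS12, fell by 1.01 on the log2 scale (limma adjusted p = 0.000738), with 6868 to 22231 TPM in EVs and 24406 to 40156 TPM in cells. SNORD4B, hosted by RPL23A, fell by 1.05 (limma adjusted p = 0.00384), with 242 to 1254 TPM in EVs and 1448 to 1984 TPM in cells.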

How the data were processed

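Groups came from the sample labels, and each table column from the library it names. The authors removed reads of low quality and kept short ones. They used STAR on hg38, then COMPSRA for annotation, weighting uniquely mapped reads more. The STAR and COMPSRA versions were not stated in the sources used. The values deposited by the authors under the name TPM are CPM within the snoRNA class: they sum to 1000000 in every library, and 100% were whole multiples of 1 read within 0.1 read, from which reads were recovered. The test planned for TPM was kept for CPM. The Poisson intervals cover the counting error of reads only. No molecular identifiers were used here, so copies made in amplification could not be told apart, and these intervals may be too narrow.

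Differences were fitted with limma 3.58.1 in R 4.3.3 on log2(TPM + 1), using a mean for every group and eBayes with trend and robust. SnoRNAs entered the fit with at least 1 TPM in 2 or more libraries. P-values are two-sided and were adjusted after Benjamini and Hochberg over all 357 snoRNAs within a comparison, with a threshold of 0.05. Fold changes are on the log2(TPM + 1) scale, which understates changes of low values. edgeR 4.0.16 and DESeq2 1.42.0 on the recovered reads, other pseudocounts, filters and scalings, a replicate block and leaving out each library were alternatives. The fitting step was tested on simulated data. Names matched GENCODE v44 for 392 of 413 rows, and 370 had a length.

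The members, the lists and the tests were chosen with earlier results of these data known. Besides the members, the text names SNORD32B and SNORD35B, for each member the 3 snoRNAs most alike over group means, and of the snoRNAs in other ribosomal protein genes the 2 highest and 2 lowest past the threshold. The circRNA table was not used here.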

Additional observations from a re-analysis of the deposited data

How the results depend on the processing

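Values are log2 differences. Over all alternatives, the 6 comparisons over both lines or between lines (EVs minus cells, the methods pairwise, and the lines in cells and in EVs) gave 621 values for the 4 snoRNAs that kept their direction and their side of the threshold, 26 that lost a call, 10 that gained one, 36 that changed sign without a call and 3 that changed sign with one. These counts leave out the comparisons within a line and of each method with cells, whose changes are given only in part, beside their values. The limits are depth (3 reads of SNORD35A in replicate 2 of MDA-MB-231 cells), groups of 2 libraries, and values that are shares. The cause of the changes below was not tested.

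Under quantile normalization, EVs minus cells was −0.79 for SNORD32A, −0.74 for SNORD34 and 0.034 for SNORD35A, and in MDA-MB-231 −1.37 for SNORD34 and −0.52 for SNORD35A. UC EVs minus cells was −0.97 for SNORD32A and −0.39 for SNORD34, and exoRNeasy EVs minus cells −0.91 for SNORD34 and −0.057 for SNORD35A. ATPS minus exoRNeasy EVs was −0.72 for SNORD33, and UC minus exoRNeasy EVs −0.10 for SNORD32A and 0.52 for SNORD34. MDA-MB-231 minus PC3 was −0.73, 0.40, 0.89 and 0.90 in cells for SNORD32A, SNORD33, SNORD34 and SNORD35A, and −0.63 in EVs for SNORD32A, which then passed the threshold (limma adjusted p = 0.0461, 0.0435 to 0.196 over the settings).

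With each library centred on its median over the snoRNAs above 0 in every library, EVs minus cells was −0.73 for SNORD32A and −0.35 for SNORD34, and UC EVs minus cells −0.81 for SNORD32A. In the same setting ATPS minus exoRNeasy EVs was −0.054 for SNORD34, and UC minus exoRNeasy EVs −0.018 for SNORD32A and 0.69 for SNORD34. MDA-MB-231 minus PC3 was −0.77, 0.29, 0.55 and 0.73 in cells for SNORD32A, SNORD33, SNORD34 and SNORD35A, and 0.092 in EVs for SNORD35A. Without the 10 most abundant snoRNAs, SNORD32A had −0.11 for EVs minus cells, SNORD33 0.0061 and SNORD34 0.98 for UC minus exoRNeasy EVs, and SNORD35A 0.14 for the lines in cells. A pseudocount of 0.1 gave SNORD34 0.94 for UC minus exoRNeasy EVs, and eBayes without trend and robust gave SNORD33 −0.85 for ATPS minus exoRNeasy EVs, neither past the threshold.

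With TMM scaling in edgeR, EVs minus cells was −0.52 for SNORD32A and −0.20 for SNORD34, the lines differed by 0.16 (SNORD35A) and 0.25 (SNORD34) in cells and 0.052 (SNORD35A) in EVs, and ATPS minus UC EVs was −1.21 for SNORD35A, past the threshold. edgeR without TMM called SNORD35A (−1.20) and SNORD33 (−0.81) for ATPS minus UC EVs and SNORD35A (0.92) for UC minus exoRNeasy EVs. DESeq2 called SNORD35A (−1.002) and SNORD33 (−0.63) for ATPS minus UC EVs, and gave SNORD32A −0.13 for EVs minus cells, SNORD34 0.76 for UC minus exoRNeasy EVs, SNORD34 0.092 for the lines in cells and SNORD35A 0.062 for the lines in EVs.

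Without each library in turn, SNORD32A ran from −0.095 to 0.14 for EVs minus cells, −0.12 to 0.37 for ATPS minus UC, −0.037 to 0.49 for UC minus exoRNeasy, −1.90 to −1.42 for the lines in cells and −0.76 to −0.41 for the lines in EVs. SNORD33 ran from −0.96 to −0.75 for ATPS minus exoRNeasy and −0.14 to 0.058 for UC minus exoRNeasy, SNORD34 from 0.78 to 1.09 for UC minus exoRNeasy, and SNORD35A from −0.37 to 0.061 for the lines in cells and −0.34 to 0.058 for the lines in EVs. A library left alone in its group is assumed to vary like the other groups.

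The number of snoRNAs called ranged over the settings from 97 to 196 for EVs minus cells, 0 to 17 for ATPS minus UC, 10 to 21 for ATPS minus exoRNeasy, 21 to 72 for UC minus exoRNeasy, 77 to 116 for the lines in cells and 87 to 144 for the lines in EVs. Leaving out 1 library gave 7 to 20 for ATPS minus exoRNeasy (7 without replicate 1 of MDA-MB-231 ATPS EVs, 20 without either MDA-MB-231 cell library), 54 to 109 for the lines in cells and 12 to 70 for UC minus exoRNeasy, where replicate 2 of MDA-MB-231 UC or exoRNeasy EVs and each PC3 library other than those of ATPS brought the count to 12 to 32. Replicate numbers were not taken to pair the libraries. The reason was that deviations of same-numbered libraries correlated at −0.21 to 0.27 over all pairs, and not every pair was above 0.1. The pairs among MDA-MB-231 EV groups had 0.22 to 0.27, and in every MDA-MB-231 group replicate 1 had more snoRNA reads than replicate 2. With a replicate block, SNORD32A was −0.77 for the lines in EVs and passed the threshold, no other call of the main results changed, and 169 snoRNAs were called for EVs minus cells against 159 without it.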
